A study of Mus musculus with 2 samples.

Results

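Nuclear receptors are transcription factors that switch genes on or off when small fat-soluble molecules bind them, and 34 genes of this family were followed in mouse liver RNA. They were chosen by gene symbol, matched to Ensembl identifiers through GENCODE M21, and all 34 were found among the 55421 genes listed in both libraries. Of these, 27 had a mean of at least 50 counts over both libraries and were compared. There was 1 library per genotype. The WT mice carried Rcrin flox alleles (the gene is present, with recombination sites around part of it), and the Rcrin conditional knockout mice had lost Rcrin in cells that expressed the recombinase. Both are labelled liver and 8 weeks. The labels do not give the Cre driver, the cells that lost the gene, or the number of mice behind a library. The name Rcrin matched no entry of the annotation, so the targeted gene was not analysed here.

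Liver uses this family to read its own chemistry. Bile acids bind FXR (Nr1h4), oxidised cholesterol binds the LXRs (Nr1h3, Nr1h2), drugs act through PXR and CAR (Nr1i2, Nr1i3), fatty acids bind the PPARs, and glucocorticoid and thyroid hormones bind their own receptors. Many of these receptors bind DNA only as a pair with a retinoid X receptor, while HNF4 alpha (Hnf4a) pairs with itself and sustains the identity of hepatocytes.

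Library totals were 65121596 (WT) and 63587567 (knockout) counts. The spread between mice is unknown in this design, so differences are described without a test or a p-value. A log2 ratio is the knockout library over the WT library after TMM scaling. Its interval is an exact 95% interval for counting error only, computed as if reads were independent. A gene is called higher or lower when the difference is at least 2-fold. Hepatocyte markers were abundant in both libraries, led by albumin (Alb) with 3350104 and 5599153 counts, and 0 of the 8 fixed hepatocyte markers differed by 2-fold. Neutrophil and erythroid markers differed by more, with median log2 ratios of -1.83 over 4 genes and -2.42 over 4 genes. All 4 neutrophil markers stood below 0, but of the erythroid ones 3 stood below and Alas2 above, at 0.55. Hba-a1, Hbb-bs, S100a8 and S100a9 have 3 exons each. Of the markers with at least 4 exons, Mpo (-3.08), Ltf (-2.72) and Slc4a1 (-2.34) stood below 0 and Alas2 above. Genes with few exons differed widely: a count of 0 in 1 library was found for 30.8% of the 354 single-exon genes compared. The share was 0.463% of the 648 genes with 3 exons and 0.104% of 10560 genes with at least 4 exons. Of the 27 receptors, only Nr0b2 (2 exons) and Nr2f2 (3 exons) had fewer than 4.

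Of the 27 receptors compared, 5 were higher in the knockout library (Nr5a2, Nr3c2, Hnf4a, Nr1h4 and Rora), 2 were lower (Rara and Rxra) and 20 lay between. Among all 12064 genes compared, 8.45% were higher and 8.61% lower, against 18.5% and 7.41% of the receptors. Among genes with at least 4 exons the background was 7.23% higher and 7.35% lower. The shares of all genes, 8.45% and 8.61%, are also the background for the 2-fold counts of every list below. The receptors' median log2 ratio was 0.25, and that of all genes compared was -0.01. The middle 50% of receptors ran from -0.12 to 0.63 and that of all genes from -0.44 to 0.44. Counting intervals lay wholly above 0 for 16 receptors, wholly below 0 for 7, and held 0 for 4, against 39.3% of all genes wholly above and 40% wholly below. At a limit of 1.5-fold, 9 receptors were higher and 3 lower, against 19% and 18.8% of all genes.

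Promoters of 5 of the 7 receptors that differed by 2-fold are shown because the family binds DNA through the core hexamer AGGTCA, and several receptors are themselves controlled by other members. Windows of 300 bases, 250 before to 50 after a RefSeq transcript start on GRCm38.p6, were matched by symbol for 31 of the 34 receptors, with 47 windows in all. AGGTCA was searched on both strands and stood in 10 of these 47 windows (21.3%), against 16.3% of all 32851 windows. Of the 7 receptors that differed by 2-fold, Nr1h4, Nr5a2, Rxra and Rara had a window with a match. Further windows of Nr5a2, Rxra and Rara had 0 matches and are not printed. A gene with more windows has more occasions for a match. Nr3c2 and Rora each had a window with 0 matches, which is not printed. The windows with a match and the downstream of the 2 Hnf4a windows, which had none, read 5′ to 3′ on the gene's strand as follows. Capitals mark AGGTCA or its reverse complement TGACCT.
Nr1h4, chr10:89506609-89506908, minus strand: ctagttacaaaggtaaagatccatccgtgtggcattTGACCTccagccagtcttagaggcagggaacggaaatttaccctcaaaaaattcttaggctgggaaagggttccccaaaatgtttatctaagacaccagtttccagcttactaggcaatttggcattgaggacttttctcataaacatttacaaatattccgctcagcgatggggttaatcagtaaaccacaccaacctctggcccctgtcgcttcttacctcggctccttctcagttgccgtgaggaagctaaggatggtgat
Nr5a2, chr1:136960399-136960698, minus strand: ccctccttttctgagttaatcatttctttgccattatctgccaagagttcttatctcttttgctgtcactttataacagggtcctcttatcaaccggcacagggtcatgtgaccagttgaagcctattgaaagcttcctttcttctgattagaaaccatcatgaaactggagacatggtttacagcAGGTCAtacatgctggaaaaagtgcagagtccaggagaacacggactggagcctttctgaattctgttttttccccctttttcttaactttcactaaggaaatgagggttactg
Hnf4a, chr2:163546905-163547204, plus strand: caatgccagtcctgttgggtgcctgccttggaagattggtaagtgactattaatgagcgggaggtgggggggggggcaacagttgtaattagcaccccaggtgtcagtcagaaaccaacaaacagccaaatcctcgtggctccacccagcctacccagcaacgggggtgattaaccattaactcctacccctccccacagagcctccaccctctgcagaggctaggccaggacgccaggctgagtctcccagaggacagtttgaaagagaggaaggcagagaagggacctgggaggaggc
Rxra, chr2:27709042-27709341, plus strand: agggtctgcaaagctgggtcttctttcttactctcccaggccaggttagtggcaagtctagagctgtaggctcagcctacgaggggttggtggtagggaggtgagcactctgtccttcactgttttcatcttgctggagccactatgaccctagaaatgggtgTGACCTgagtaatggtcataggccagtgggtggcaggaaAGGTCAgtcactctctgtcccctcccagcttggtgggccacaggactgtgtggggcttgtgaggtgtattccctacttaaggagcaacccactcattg
Rara, chr11:98964622-98964921, plus strand: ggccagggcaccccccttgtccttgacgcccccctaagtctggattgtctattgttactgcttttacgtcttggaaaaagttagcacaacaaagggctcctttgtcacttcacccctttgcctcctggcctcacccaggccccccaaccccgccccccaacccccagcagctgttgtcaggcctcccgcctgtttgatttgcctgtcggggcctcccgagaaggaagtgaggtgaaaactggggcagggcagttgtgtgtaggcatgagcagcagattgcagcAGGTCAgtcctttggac
The Nr5a2 window spans the 5′ end of the gene as annotated in GENCODE M21, and the other 4 windows lie inside their genes, at internal transcript starts. The Nr1h4 match lay 214 bases before the transcript start and the Nr5a2 match 64 bases before it. The Rxra window held 2 matches, the farther one 87 bases before the start, and the Rara match lay 33 bases after the start. The longer letters TCAAGGTCA, bound by LRH-1 and by estrogen-related receptors and overlapping AGGTCA, stood in 0 of the 47 receptor windows and 0.423% of all windows. CAAAGTCCA, an HNF4 motif, stood in 0 and in 0.475%. A match describes letters in a window and does not show binding, and these windows were chosen after the values were seen.

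Levels of different genes were compared per length, as RPKM (reads per kilobase of exon per 1000000 scaled reads). On this scale LXR alpha (Nr1h3) stood highest, at a level of 76.1 in WT and 79.8 in the knockout, above 94.6% of all genes compared by its mean level. The orphan repressor Nr2f6 came next with levels of 65.3 and 59.4. Both held the same place in each library. The order depends on the gene length used. With the median transcript length in place of exon length, Hnf4a took place 1, Nr2f6 place 2 and Nr1h3 place 3, and Nr1h4 went from place 4 to 9. By exon length, the 5 highest by mean level were Nr1h3, Nr2f6, Hnf4a, Nr1h4 and Rxra. They took 66.6% of the summed receptor level in WT and 66.4% in the knockout. The summed level of all receptors was 337 and 383.

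Below the top pair the order differed between libraries. In the WT library Rxra was the third, Hnf4a the fourth, Nr1h2 the fifth and Nr1h4 the sixth, and in the knockout library Hnf4a was the third, Nr1h4 the fourth, Nr0b2 the fifth and Rxra came after Nr1i2. Nr5a2 stood at place 21 in WT and 14 in the knockout, and Rara at 12 and 17. Spearman's rho between the libraries was 0.935 across the 27 receptor levels and 0.911 across all genes, where genes are not replicates.

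Some levels rest on exons that another gene shares on the opposite strand, and the sources used here do not say whether counting used strand. The annotated exons of Nr1i3 share 74.9% of their length with Tomm40l, those of Nr2f6 54.4% with Ocel1, those of Rarb 34.1% with Top2b and those of Nr2c2 30.7% with Mrps25. For Nr2f6 the neighbour was far lower (1495 and 1671 counts against 12916 and 11078). For Rarb and Nr2c2 the neighbour was higher than the receptor. These 4 receptors are therefore uncertain in level.

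**Figure D1:**
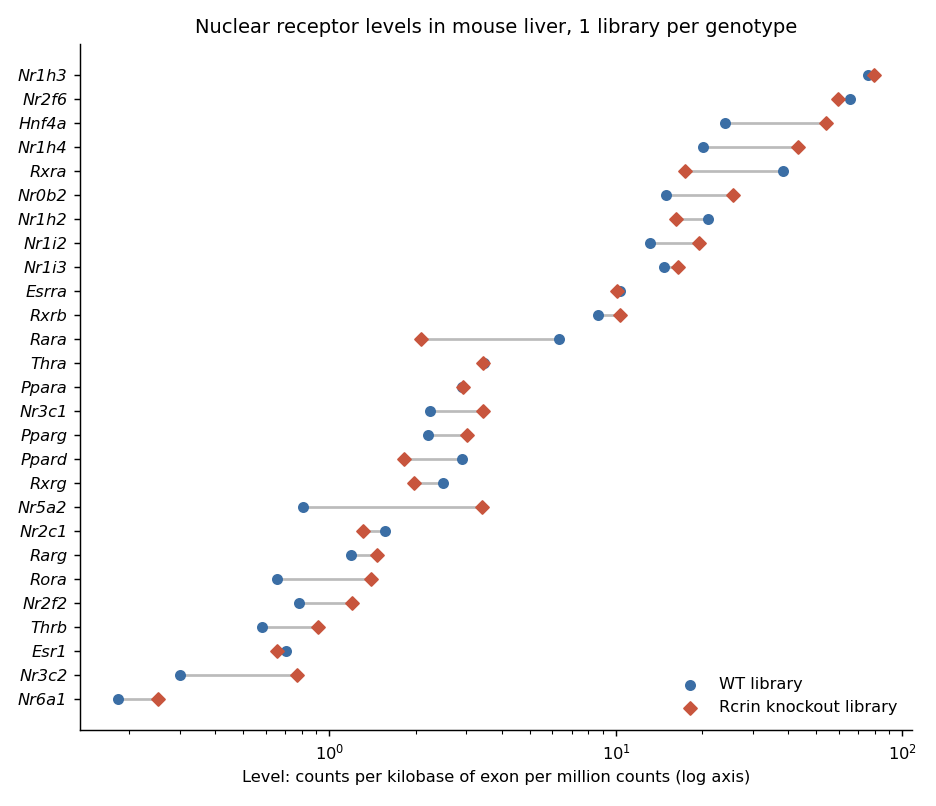
Level of each of the 27 receptors compared (RPKM, log axis) in the WT library (circles) and the Rcrin knockout library (diamonds), 1 library each, ordered by mean level. Nr1h3 and Nr2f6 stand highest in both, and Nr5a2 and Rara show the widest gaps.

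Of the receptors tied to bile acids, FXR and LRH-1 were higher in the knockout library, and SHP stood above 0 but inside 2-fold. With the GC trend described at the end removed, FXR came to 0.93, inside 2-fold. FXR, the bile acid sensor (Nr1h4, ENSMUSG00000047638, GRCm38 chromosome 10 from 89454234 to 89533585), had 3071 counts in WT and 6236 in the knockout, which is 2.15-fold higher after scaling (log2 ratio 1.11, interval 1.04 to 1.17). LRH-1, an orphan receptor that drives bile acid synthesis genes (Nr5a2, ENSMUSG00000026398, chromosome 1 from 136842571 to 136960448), had 316 and 1253 counts and was 4.20-fold higher after scaling (log2 ratio 2.07, interval 1.89 to 2.26). It was the farthest of the 27 receptors. SHP, a receptor without a DNA-binding domain that FXR induces (Nr0b2), had 1118 and 1805 counts, a log2 ratio of 0.78. This gene has 2 exons, a class in which 16.3% of genes were higher and 19.7% lower by 2-fold.

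The sterol sensors stood apart from them. LXR alpha had 12686 and 12540 counts and a log2 ratio of 0.07 (interval 0.03 to 0.10). LXR beta (Nr1h2) had 4657 and 3392 counts and a log2 ratio of -0.37 (interval -0.44 to -0.31). The counting intervals of these paralogs did not overlap. Such intervals are narrow, wholly above 0 for 39.3% and wholly below 0 for 40% of all genes, and hold no spread between mice. Kupffer cells also express LXR alpha. Of their 6 markers 1 was higher and 0 lower by 2-fold, with 2 above 0, 4 below and a median log2 ratio of -0.28. Their summed level was 485 in WT and 372 in the knockout, of which Cd5l alone held 295 and 200. The part of these markers in the Nr1h3 value was not tested.

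Target genes of these receptors did not follow in 1 direction. Of 9 listed FXR targets 7 were compared, and 0 were higher by 2-fold and 1 lower, with a median log2 ratio of -0.67. Nr0b2, given above, is not in this list. Slc51a (9 and 4 counts) and Slc51b (8 and 25 counts, log2 ratio 1.67) lay below the level limit. With no level filter 1 FXR target was higher. The bile salt export pump Abcb11 had 17248 and 7081 counts (log2 ratio -1.20), and Apoc2 (-0.88) and the phospholipid transfer protein Pltp (-0.74) came next. The bile acid conjugating enzyme Baat stood highest at 0.53, followed by Slc27a5 (0.20) and the phospholipid exporter Abcb4 (-0.23). Of 5 bile acid synthesis genes compared, 2 were higher and 0 lower, or 1 higher with the GC trend removed, without Akr1d1. These were Hsd3b7 (19888 and 44842 counts, log2 ratio 1.26) and Akr1d1 (2588 and 5364 counts, log2 ratio 1.14), enzymes that modify the sterol ring. The rate-limiting enzyme Cyp7a1 had 629 and 635 counts (log2 ratio 0.10), Cyp7b1 stood at -0.03 and Cyp27a1 at -0.25. Cyp8b1, a gene with 1 exon, was listed at 0 in both libraries.

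LXR targets had a median log2 ratio of -0.03 over 9 genes, with 1 higher and 0 lower. Srebf1, the regulator of fatty acid synthesis, had 4569 and 12618 counts (log2 ratio 1.55). The sterol exporters Abcg5 (0.82) and Abcg8 (0.61) followed, and Pltp (-0.74), Mylip (-0.66) and the desaturase Scd1 (-0.61) stood lowest.

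HNF4 alpha (Hnf4a, ENSMUSG00000017950, chromosome 2 from 163506808 to 163572910) had 7694 counts in WT and 16348 in the knockout, which is 2.25-fold higher after scaling (log2 ratio 1.17, interval 1.13 to 1.21). Its paralog Hnf4g was listed at 0 in both libraries, and a count of 0 allows up to 3 counts. Of 14 HNF4 alpha targets compared, 2 were higher and 2 lower, with a median of -0.11. The apolipoprotein Apoa2 had 412681 and 1096775 counts, 2.82-fold higher, and hepatic lipase Lipc (1.08) and the urea cycle enzyme Otc (0.93) followed. Clotting factor F9 had 5199 and 996 counts (log2 ratio -2.30). The apolipoprotein Apoc3 stood at -0.82.

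The drug-sensing receptors differed by less than 2-fold. PXR (Nr1i2) had 2233 and 3120 counts, a log2 ratio of 0.57 (interval 0.49 to 0.65). CAR (Nr1i3) had 4314 and 4529 counts, a log2 ratio of 0.16. The vitamin D receptor Vdr was near absent, with 7 counts in WT and 0 in the knockout, and no fold is given for it. Of 17 PXR and CAR targets, 4 were higher and 3 lower, with a median of 0.02. Cyp2b10, the classic CAR target, had 37 and 140 counts (log2 ratio 1.99), followed by the uptake transporter Slco1a4 (1.26) and Cyp2c55 (1.11). On the other side stood the bilirubin conjugating enzyme Ugt1a1 (32218 and 9551 counts, log2 ratio -1.67), the P450 reductase Por (-1.33) and the exporter Abcc4 (-1.30). Reads of P450 and Ugt1a genes can be shared with close paralogs or between their common exons, so these values are uncertain. Cyp3a11, the classic PXR target, was named after its value was seen and stood at 0.28.

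The fatty acid receptors also lay within 2-fold. PPAR alpha (Ppara), the fasting regulator of fat oxidation, had 740 and 703 counts and a log2 ratio of 0.01 (interval -0.14 to 0.16). PPAR delta (Ppard) had 1445 and 853 counts (log2 ratio -0.67) and PPAR gamma (Pparg), better known from fat tissue, 433 and 559 (log2 ratio 0.45). Of 24 PPAR alpha targets, 4 were higher and 1 lower, with a median of -0.06. The fatty acid translocase Cd36 had 355 and 1017 counts (log2 ratio 1.60). Fabp1 (1.36), the fatty acid binding protein, followed. Angptl4 (-1.02), the carnitine transferase Cpt1a (-0.89) and Acadl (-0.56) stood lowest.

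**Figure D2:**
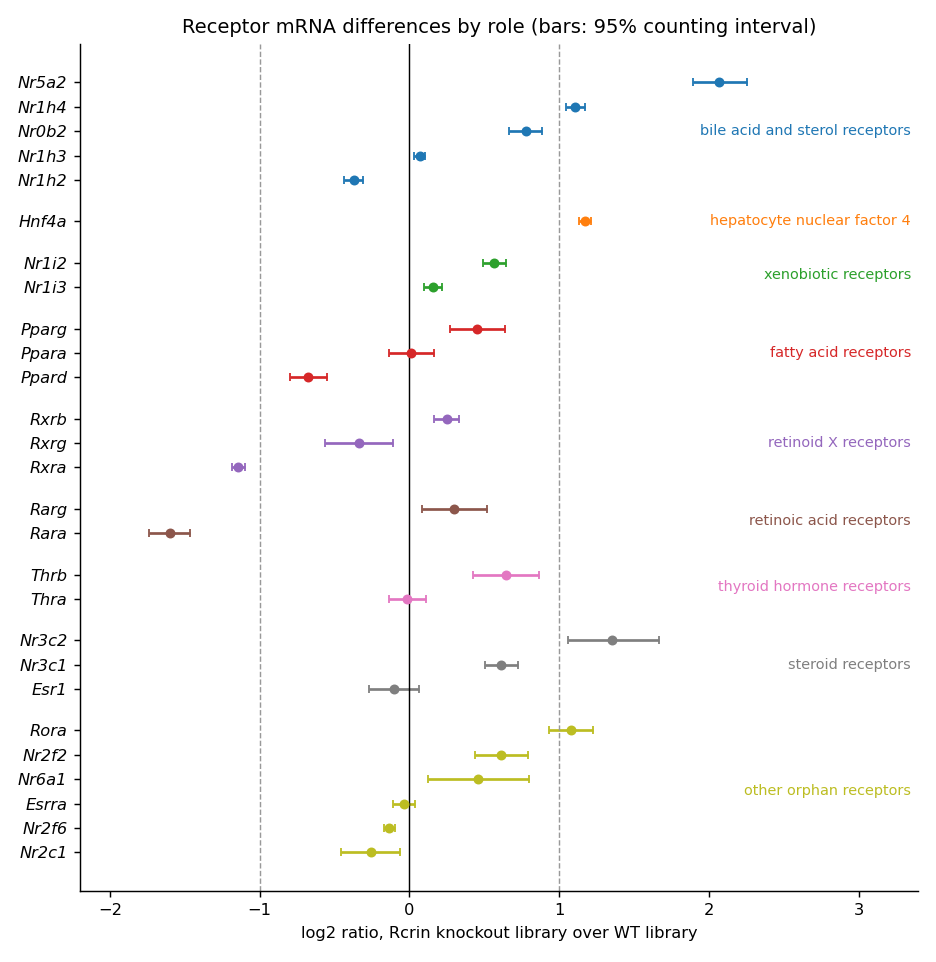
Log2 ratio of the knockout library over the WT library for the 27 receptors compared, grouped by role, with bars for the 95% counting interval and dashed lines at 2-fold. Nr5a2 stands highest at 2.07 and Rara lowest at -1.60, and bars do not include any spread between mice.

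The alpha forms of both retinoid receptor groups were lower in the knockout library. With the GC trend described at the end removed, Rxra came to -0.89, inside 2-fold, and Rara to -1.33. RXR alpha (Rxra, ENSMUSG00000015846, chromosome 2 from 27676440 to 27762957), the main shared partner of the metabolic receptors in liver, had 13896 counts in WT and 5931 in the knockout, which is 2.21-fold lower after scaling (log2 ratio -1.14, interval -1.19 to -1.10). The retinoic acid receptor alpha (Rara, ENSMUSG00000037992, chromosome 11 from 98927818 to 98974942) had 1837 and 571 counts and was 3.03-fold lower after scaling (log2 ratio -1.60, interval -1.74 to -1.46). Their paralogs did not stand lower to the same degree. Rxrb had 2285 and 2558 counts (log2 ratio 0.25), Rxrg 378 and 282 (log2 ratio -0.34), and Rarg 336 and 390 (log2 ratio 0.30).

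The makeup of each retinoid group therefore differed between libraries. Rxra made up 77.5% of the summed retinoid X receptor level in WT and 58.6% in the knockout. Rara made up 82.5% and 57.2% of the summed retinoic acid receptor level. Retinoid X receptors together had a level of 49.5 and 29.7. Their 14 partner receptors among the members had a summed level of 165 and 191, led by Nr1h3 and Nr1h4. The partner level per unit of retinoid X receptor level was 3.33 in WT and 6.45 in the knockout, and 3.74 and 6.62 with the length of the longest transcript. These sums were formed after the values were seen, and they describe mRNA, not protein. No GC correction was applied to them.

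**Figure D3:**
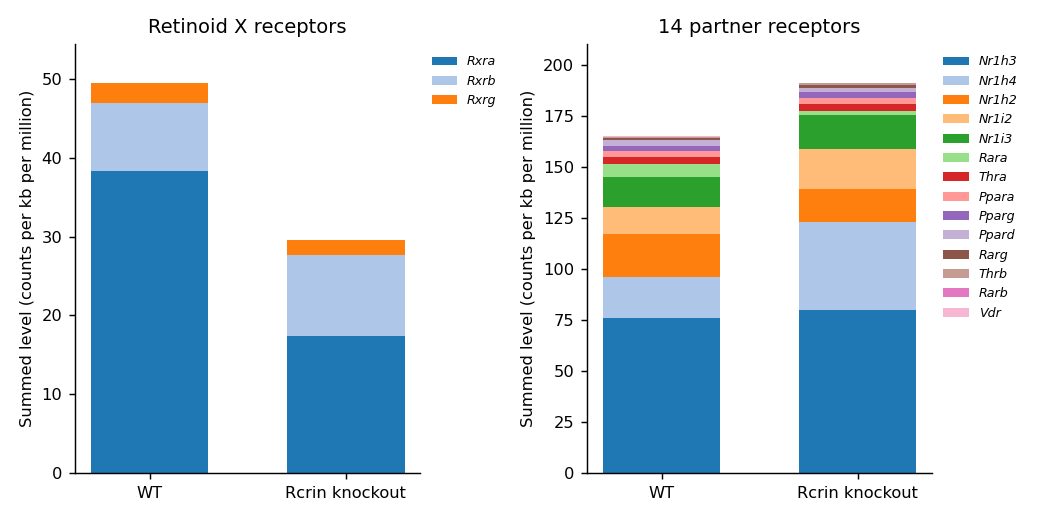
Stacked levels (RPKM) of the 3 retinoid X receptors on the left and of 14 receptors that pair with them on the right, in the WT and the Rcrin knockout library, 1 library each. The left stack is 49.5 and 29.7 high and the right stack 165 and 191.

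Retinoic acid receptor targets had a median log2 ratio of 0.24 over 6 genes, with 1 higher and 1 lower. These were the retinoic acid degrading enzymes Cyp26a1 (138 and 482 counts, log2 ratio 1.89) and Cyp26b1 (513 and 24 counts, log2 ratio -4.30), so the paralogs stood on opposite sides. Tgm2 (0.35) and Dhrs3 (0.13) lay between. Cyp26b1 and Lrat, the retinyl ester enzyme, are also expressed by stellate cells, and Lrat is itself among their 7 markers. The markers had a summed level of 68.6 in WT and 51.8 in the knockout, of which Ecm1 alone held 56.6 and 40.8. Of the 7, 1 was lower by 2-fold and 0 higher, with 2 above 0 and 5 below. The part of cell makeup in these values was not tested. In bulk liver RNA, fewer cells of a type and less RNA per cell cannot be told apart.

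Receptors for thyroid hormone and steroids were at middle to low levels. The beta thyroid hormone receptor Thrb, the main form in hepatocytes, had 286 and 421 counts (log2 ratio 0.64, interval 0.42 to 0.86), and Thra had 1059 and 989 (log2 ratio -0.01). Thra shares 263 exonic bases with Nr1d1 on the opposite strand, and Nr1d1 had 179 and 765 counts. Of 5 thyroid hormone targets compared, 1 was higher and 1 lower, with a median of -0.22. The deiodinase Dio1, which activates thyroid hormone, had 11709 and 4197 counts (log2 ratio -1.39), the malic enzyme Me1 stood at -0.58 and Gpd2 at 0.21. Thrsp, a gene with 2 exons, was the higher one at 1.30 and was named after its value was seen.

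The mineralocorticoid receptor (Nr3c2, ENSMUSG00000031618, chromosome 8 from 76899442 to 77245012) had 129 counts in WT and 312 in the knockout, which is 2.56-fold higher after scaling (log2 ratio 1.36, interval 1.06 to 1.67). The glucocorticoid receptor Nr3c1 had 1144 and 1648 counts (log2 ratio 0.61, interval 0.50 to 0.72). The estrogen receptor Esr1 had 640 and 561 counts (log2 ratio -0.10, interval -0.27 to 0.06).

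Glucocorticoid receptor targets were spread widely. Of 14 compared, 3 were higher and 3 lower, with a median of -0.16, or 0.14 over those with at least 4 exons. The insulin-like growth factor binding protein Igfbp1 had 6673 and 25244 counts, 4.01-fold higher, and the tryptophan enzyme Tdo2 (1.29) and the anti-inflammatory Tsc22d3 (1.02) followed. Fkbp5, a chaperone that dampens the receptor, had 4020 and 711 counts (log2 ratio -2.41), and Pck1 (-0.73) and Per1 (-0.22) were next. The metallothioneins Mt1 (-3.60) and Mt2 (-5.16), named after their values were seen, have 3 exons each and also respond to metals and inflammation. Of 8 chaperones that hold steroid receptors, 0 were higher and 2 lower, with a median of -0.58. Besides Fkbp5 these were Hsp90aa1 (6303 and 1913 counts, log2 ratio -1.63), followed by Hsp90ab1 (-0.77). Fkbp4 (-0.27), Ptges3 (-0.21) and Hspa4 (0.10) stood highest.

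Among the remaining orphan receptors 1 of 6 compared was higher by 2-fold and 0 lower, against 8.45% and 8.61% of all genes. ROR alpha (Rora, ENSMUSG00000032238, chromosome 9 from 68653786 to 69388246), a clock-linked activator, had 570 and 1137 counts and was 2.12-fold higher after scaling (log2 ratio 1.08, interval 0.94 to 1.23). Its interval reached below 2-fold. Nr2f2, expressed in vessels and stroma, had 449 and 647 counts (log2 ratio 0.61), and Nr6a1 131 and 170 (log2 ratio 0.46). Esrra, a regulator of mitochondrial genes, had 3011 and 2768 counts (log2 ratio -0.04), Nr2f6 a log2 ratio of -0.14, and Nr2c1 477 and 376 counts (log2 ratio -0.26). The sinusoidal endothelial markers beside Nr2f2 had 0 of 6 past 2-fold, 3 above and 3 below 0, and a median log2 ratio of -0.13. Their summed level was 72.6 in WT and 85.7 in the knockout, of which Clec4g alone held 49.9 and 66.9. The part of these markers in the Nr2f2 value was not tested.

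The 7 receptors below the level limit were Rarb (55 and 34 counts), Nr2c2 (49 and 36), Nr2f1 (30 and 30), Nr4a2 (12 and 17), Nr4a3 (5 and 13), Vdr (7 and 0) and Hnf4g (0 and 0). The lowest receptor that was compared, Nr6a1, had a mean of 150.5 counts and the highest that was not, Rarb, a mean of 44.5. Counting intervals of Rarb, Nr2c2, Nr2f1, Nr4a2 and Nr4a3 all held 0, so a difference was not detectable at this depth.

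Other receptors of the family, which were not among the 34, were mostly silent. Of 14 listed, 4 had a mean of at least 50 counts. Of these 4, 3 were higher and 0 lower, against 8.45% and 8.61% of all genes. These were Nr4a1 (154 and 890 counts, log2 ratio 2.61), an early response gene, and the clock repressors Nr1d1 (log2 ratio 2.18) and Nr1d2 (133 and 320 counts, log2 ratio 1.35). Esrrg was listed at 0 in the WT library and had 18 counts in the knockout library.

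Coregulators, which receptors recruit to act on chromatin, had a median log2 ratio of -0.29 over 22 genes. Of these, 1 was higher and 4 lower (4.55% and 18.2%, against 8.45% and 8.61% of all genes). Nrip1, a corepressor of ligand-bound receptors, had 334 and 7 counts (log2 ratio -5.39). The coactivators Ncoa3 (792 and 333 counts, log2 ratio -1.16) and Ppargc1a (130 and 58 counts, log2 ratio -1.07) were lower too, as was the methyltransferase Carm1 (-1.02), named after its value was seen. Kat2b, an acetyltransferase, had 981 and 2116 counts (log2 ratio 1.19), and the corepressor parts Ncor1 (0.56) and Tbl1x (0.52) came next.

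Genes that supply or carry ligands had a median of 0.24 over 15 genes, with 2 higher and 2 lower. Fabp1, listed above, and Hsd11b1 (31910 and 60553 counts, log2 ratio 1.01), which regenerates active glucocorticoid, were higher, and the thyroid hormone carrier Ttr stood at 0.73. The transporter Slc16a10, which moves thyroid hormone and aromatic amino acids, had 7096 and 1066 counts (log2 ratio -2.65). Dio1 was also lower, and the thyroxine binding globulin Serpina7 stood at -0.87.

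**Figure D4:**
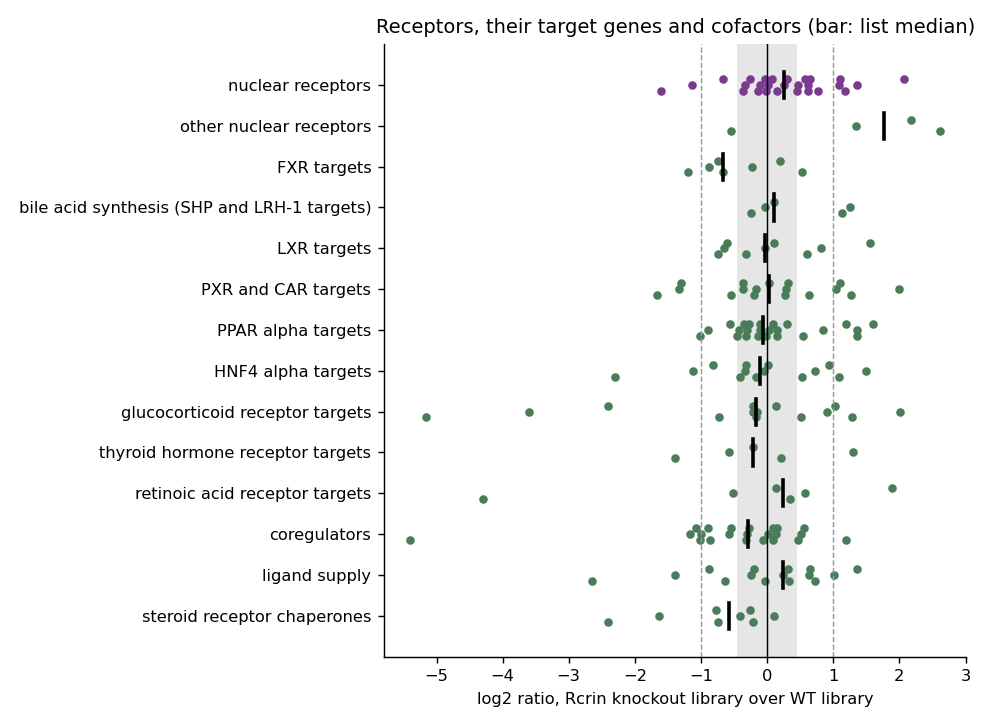
Log2 ratios of the 27 receptors compared (purple) and of lists of related genes (green), each point a gene. Black bars are the list medians, dashed lines 2-fold, and the grey band the middle 50% of all genes compared (-0.44 to 0.44). The FXR target median is -0.67 and that of the receptors 0.25.

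Transcript GC content moved with the receptor differences. The 5 higher receptors had GC contents of 46.6% to 55.2% and the 2 lower ones of 58.6% and 59.6%. Across the 27 receptors GC content and log2 ratio had a Pearson r of -0.504 and a Spearman rho of -0.52, and across 12059 genes compared of -0.159 and -0.325. These are relations across genes, which share both libraries. With the trend over all genes removed, 5 receptors were higher and 1 lower, against backgrounds of 7.52% and 8.16%. Nr1h4 came to 0.93 and Rxra to -0.89, both inside 2-fold, and Nr0b2 to 1.03, past it. Nr5a2 (2.03), Hnf4a (1.39), Nr3c2 (1.34), Rora (1.08) and Rara (-1.33) kept their calls.

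**Figure D5:**
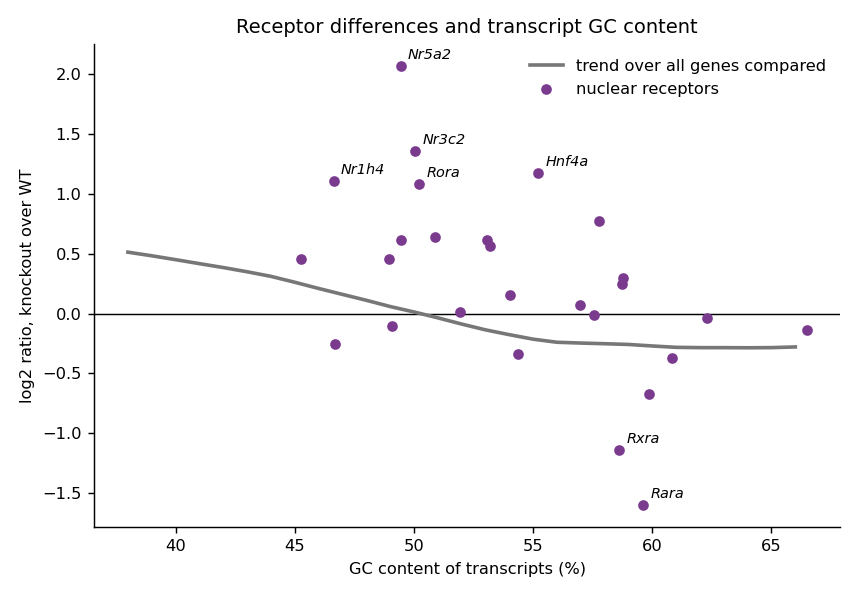
Log2 ratio of the 27 receptors compared against the median GC content of their transcripts (%), with the trend over all genes compared as a line and the 7 receptors past 2-fold named. The trend falls from above 0 at low GC content to below 0 at high GC content, and Nr5a2, Hnf4a, Nr3c2 and Rara lie farthest from it.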

How the data were processed

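Total RNA of mouse liver was sequenced after SMARTER mRNA-Seq library preparation, per the labels' protocols. The authors deposited raw counts for each Ensembl gene, as the file headers name them, 65121596 for WT and 63587567 for the knockout. The build is GRCm38 (mm10), per the submitters' processing notes. Alignment, counting, strand setting and the handling of multiply mapped reads are not given in the sources used here. Names, positions, exon numbers (of the transcript with most exons), exon unions and median transcript GC content came from GENCODE M21, which held 55240 of 55421 genes. Promoter sequences are RefSeq's.

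Libraries were scaled with edgeR 4.0.16 TMM factors (WT 1.02, knockout 0.982; R 4.3.3). Library-scaled reads of 0.5 were added before log2 ratios. Intervals are exact conditional Clopper-Pearson 95% intervals, which treat reads as independent and cover counting error only. PCR reads without molecular identifiers are not independent, so the intervals can be too narrow even for that error. No replicate exists, so neither edgeR nor DESeq2 gave a test. GC trends were fitted by lowess (statsmodels 0.14.6, fraction 0.3). The calculations were tested on simulated data.

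Members and lists were chosen with earlier results of these data known. Every receptor was reported, and in each of 13 related lists the 3 highest and 3 lowest genes past 50 mean counts and 4 exons were named, with genes listed at 0 in 1 library, except that some genes this rule names are not reported here. Counts and medians of a list cover all its genes compared. Alternatives were DESeq2 1.42.0 size factors, total counts, other level, fold and exon limits, 5 added reads, GC correction and other transcript lengths.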

Additional observations from a re-analysis of the deposited data

How the results depend on the processing

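The counts of 5 higher and 2 lower receptors were unchanged under DESeq2 size factors, total-count scaling, 5 added reads and a limit of at least 4 exons. With a limit of 4-fold, 1 was higher and 0 lower. With 1.5-fold 9 were higher and 3 lower, against 19% and 18.8% of all genes. Removing the GC trend left 1 lower. The median log2 ratio of 0.25 became 0.11 among receptors with a mean of at least 500 counts. Where the whole counting interval had to lie beyond 2-fold, 4 were higher, without Rora. Among receptors with a mean of at least 500 counts 4 were higher and 2 lower, without Nr3c2. With no level filter 6 were higher and 3 lower, with Nr4a3 and Vdr added. The share of all genes was not computed at 4-fold, at these level limits or for the interval beyond 2-fold. Those counts therefore show only how the receptor calls moved, not how they stand against the background. Of the 10 highest receptors by level, 8 were also among the 10 highest by median transcript length and 10 by the longest transcript. Removing the GC trend changed the sign of some list medians, to 0.03 for HNF4 alpha targets, 0.04 for LXR targets, -0.11 for bile acid synthesis and -0.15 for PXR and CAR targets, and brought the coregulator median to -0.09 with 5 lower. With it, higher calls went from 4 to 2 for PXR and CAR targets and from 3 to 1 for glucocorticoid receptor targets, and lower calls from 2 to 4 for ligand supply. It also took higher calls from 2 to 1 for bile acid synthesis and ligand supply, from 1 to 0 for coregulators and from 4 to 5 for PPAR alpha targets, and lower calls from 1 to 0 for PPAR alpha targets and from 2 to 1 for HNF4 alpha targets. Over glucocorticoid receptor targets with at least 4 exons the median was 0.14, with 1 lower in place of 3. With total counts the PXR and CAR target median became -0.03. Of 261 receptor values recomputed, 21 moved beyond their counting interval, 17 of them with the GC trend removed and 4 with total counts. Of the receptors past 2-fold, 0 changed sign. Among the others, Nr2f6 went from -0.14 to 0.14, Esrra from -0.04 to 0.25 and Thra from -0.01 to 0.24 with the GC trend removed, and Ppara from 0.01 to -0.04 with total counts. No paired analysis was possible because each genotype has 1 library. The intervals cover counting error only, and the spread between mice cannot be given from these libraries.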

Other observations

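In several cases a receptor and the median of its target list stood on different sides of 0, given here as values with no explanation. Each of these lists held genes above and below 0, so the median does not give a direction for the list. Nr1h4 had a log2 ratio of 1.11 and FXR targets a median of -0.67, in a list without Nr0b2 (0.78) and over targets past the level limit. Hnf4a had 1.17 and its targets -0.11, which became 0.03 with the GC trend removed. The summed level of these targets was 32565.5 in WT and 56623.3 in the knockout, of which Apoa2 held 11594.1 and 32692.5. Rara had -1.60 and retinoic acid receptor targets 0.24. Thrb had 0.64, Thra -0.01 and thyroid hormone targets -0.22. Nr3c1 had 0.61 and its targets -0.16, which became 0.14 over targets with at least 4 exons. Nr1h3 (0.07) and Ppara (0.01) lay close to 0, as did the medians of their targets (-0.03 and -0.06). Over all 98 target genes compared, 18 were higher and 12 lower by 2-fold (18.4% and 12.2%, against 8.45% and 8.61% of all genes compared), with a median of -0.03. With 1 library for each genotype these differences were not tested. The lists were chosen with earlier results of these data known. Their shares of higher and lower genes therefore cannot be read as an excess over all genes.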
